A study of Homo sapiens with 4 samples.

Results

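ATM, ATR and the kinases and cofactors they work with were followed at the RNA level in OVCAR3, an established line of high-grade serous ovarian carcinoma. The 10 genes were chosen by name for their known place in the DNA damage checkpoint, with earlier results of these data known. The annotation holds 60605 genes in all. They are the apical kinases ATM and ATR, the ATR partner ATRIP and the ATR activator ETAA1, the clamp loader subunit RAD17 with the clamp subunits RAD9A and HUS1, and the effector kinases CHEK1, CHEK2 and WEE1. All cells had been held in nocodazole, a microtubule poison that stops cells in mitosis, at 100 ng/mL for 16 h and released for 3 h. They then received etoposide, which traps topoisomerase II on broken DNA, at 1.7 µM for 24 h, or its solvent DMSO alone, with 2 libraries in each group, so that every control also went through the mitotic block and release. The comparison asks whether a day of etoposide changed the transcript levels of the checkpoint kinases. The labels give the libraries as biological replicates but no shared day or batch, and 1 cell line was used throughout.

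In the damage checkpoint, ATM is switched on at double-strand breaks through the MRE11-RAD50-NBN complex, and ATR is brought by ATRIP to single-stranded DNA coated with RPA. RAD17 loads the ring of RAD9A, RAD1 and HUS1 beside the single-stranded DNA, and the ring brings TOPBP1, which activates ATR, while ETAA1 activates ATR from RPA itself. ATM mainly phosphorylates CHEK2 and ATR mainly phosphorylates CHEK1, and both effectors restrain the CDC25 phosphatases. WEE1 places the inhibitory phosphate on CDK1 and CDK2 that the CDC25 enzymes remove. These steps are run by phosphorylation, which RNA levels do not record.

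The unit throughout is the FPKM, a fragment count scaled to the length of the transcript and to the mapped fragments of the library, summed over all annotated transcripts of a gene in each library. The coverage implied about 64500000 and 66500000 read pairs for DMSO replicates 1 and 2 and about 47700000 and 58500000 read pairs for etoposide replicates 1 and 2. The epithelial and serous markers EPCAM, KRT8, KRT18, CDH1, PAX8, WT1 and MUC16 were all present. Their sum was 2660 and 2346 FPKM with DMSO and 1801 and 1876 with etoposide, and its part in the results was not tested. KRT8, KRT18, PAX8 and MUC16 were lower in both etoposide libraries than in both DMSO libraries (19% of all genes). Of the 7 markers, 5 had lower and 2 had higher means after etoposide. In 1 of the 7, both etoposide libraries lay above both DMSO libraries (28.9% of all genes). The leukocyte, endothelial, fibroblast and mesothelial markers PTPRC, CD3E, PECAM1, CDH5, COL3A1, DCN and CALB2 had means below 0.1 FPKM. Those of the other markers were low too, with CD68 at 0.07 to 0.18, LYZ at 0.14 to 0.24, LUM at 0.36 to 0.47 and VWF at 0.52 to 0.91, except for COL1A1. Summed over the 12 markers of other cell types, FPKM was 5.82 to 5.97 with DMSO and 7.49 to 7.97 with etoposide, most of it from the collagen gene COL1A1 (4.36, 4.42, 6.11 and 5.80), and their part was likewise not tested.

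DMSO replicate 1 stood apart from the other 3 libraries in how the reads were spread along long transcripts. Coverage was compared on each side of the transcript midpoint, as log2 of the mean over the 3′ side against the mean over the 5′ side. For ATR the value was 1.81 in DMSO replicate 1 and 0.69, 0.73 and 0.68 in DMSO replicate 2 and etoposide replicates 1 and 2. For ATM it was 2.00 against 0.91, 0.68 and 0.68 in the same order. Both apical kinases thus had a smaller part of their coverage on the 5′ side in that library. Over 1952 protein-coding genes with a main transcript of at least 6000 bases, the median was 0.12 in DMSO replicate 1 and between −0.09 and −0.07 in the other 3 libraries. The log2 difference of DMSO replicate 2 from DMSO replicate 1 was correlated with transcript length (Spearman's rho = 0.32) and with GC content (rho = −0.34) across 22185 genes, which are not independent replicates and share these 2 libraries. Between the 2 etoposide libraries the corresponding rho values were 0.02 and −0.02. The differences of the members are therefore given also without that library and from the last 1000 bases of the main transcript alone. In that window DMSO replicate 1 was the highest library for ATR, ATRIP, RAD17 and WEE1. It was not the highest for ATM, RAD9A, HUS1, CHEK1 and CHEK2. The levels there are still scaled to the whole library, so this window may be uneven between libraries in its own way, which was not tested.

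**Figure D1:**
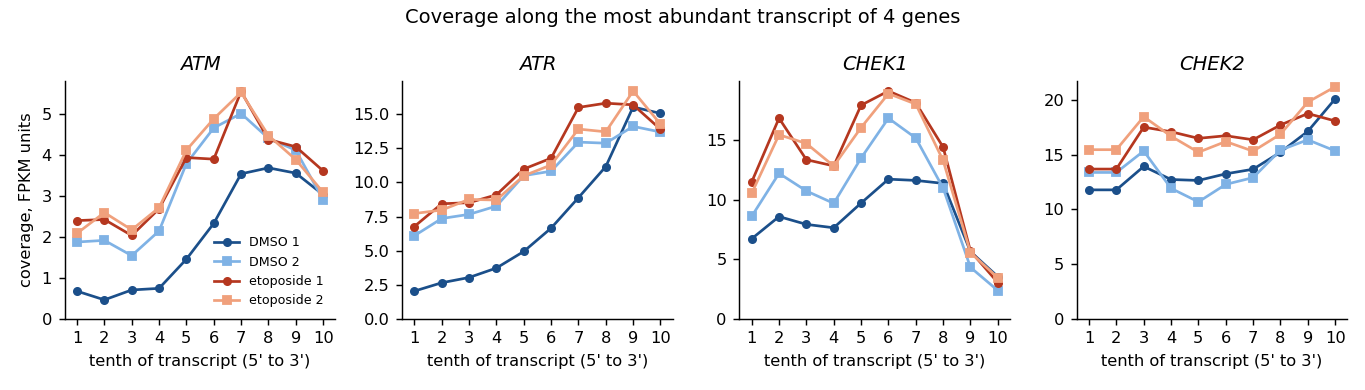
Mean coverage in FPKM units (vertical axis) in 10 equal parts of the most abundant transcript from the 5′ to the 3′ end (horizontal axis) for ATM, ATR, CHEK1 and CHEK2, with 1 line per library. In DMSO replicate 1 the coverage of ATM and ATR began at 0.67 and 2.03, below the 1.87 to 2.39 and 6.09 to 7.72 of the other libraries, and met them only near the 3′ end.

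Among the apical kinases, ATM (ENSG00000149311, GRCh38 chr11:108223044-108369102, plus strand) was the least abundant of the 9 genes that could be measured. Its level was 2.54 and 4.06 FPKM with DMSO and 4.15 and 4.54 with etoposide. The low value was that of DMSO replicate 1, and DMSO replicate 2 lay just below the lower etoposide library. The etoposide to DMSO difference was 0.42 ± 0.22 (SE) on the log2(FPKM + 0.1) scale, with a 95% interval from −0.12 to 0.97 and an adjusted p of 0.47 by limma. Without DMSO replicate 1 it was 0.10, and without DMSO replicate 2 it was 0.75, with an adjusted p of 0.037 by limma. Over the last 1000 bases ATM stood at 2.94, 2.72, 3.52 and 2.96, a difference of 0.18 with an adjusted p of 0.57 by limma.

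ATR (ENSG00000175054, chr3:142449007-142578733, minus strand), the kinase that answers stalled replication, measured 10.6 and 13.1 FPKM with DMSO and 14.6 and 14.9 with etoposide. Both etoposide libraries lay above both DMSO libraries, and the etoposide pair was the tighter one. The difference was 0.32 ± 0.12 (SE) on the log2 scale, or 1.25-fold with a 95% interval from 1.02 to 1.54, and the adjusted p was 0.40 by limma. It was 0.17 without DMSO replicate 1 and 0.48 without DMSO replicate 2 (adjusted p of 0.034 by limma). Over the last 1000 bases, where DMSO replicate 1 was the highest library, ATR read 15.7, 14.04, 14.05 and 15.05. There the groups overlapped and the difference was −0.03, with a 95% interval from −0.25 to 0.19. ATM and ATR are the longest of the 10 genes, at an abundance-weighted mean transcript length of 10875 and 6893 bases, and both have a GC content of 39.0%. Once length and GC content were corrected for, ATM and ATR differed by 0.14 and 0.08.

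The RefSeq promoter windows of both apical kinases and of ETAA1 are shown because the apical kinases head the pathway and had the uneven coverage described above, and because ETAA1 was at or near 0. Each window is the 250 bases before the annotated start in GRCh38.p14. Capitals mark CCAAT or its complement ATTGG, the NF-Y box of many cell cycle promoters, and TTTGAA, the letters of the cell cycle homology region.
ATM, chr11:108222817-108223066, plus strand: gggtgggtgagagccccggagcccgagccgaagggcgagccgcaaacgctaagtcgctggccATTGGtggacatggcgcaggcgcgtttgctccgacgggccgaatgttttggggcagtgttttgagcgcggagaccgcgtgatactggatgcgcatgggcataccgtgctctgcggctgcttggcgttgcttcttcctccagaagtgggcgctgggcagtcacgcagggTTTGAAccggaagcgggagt
ATR, chr3:142578734-142578983, minus strand: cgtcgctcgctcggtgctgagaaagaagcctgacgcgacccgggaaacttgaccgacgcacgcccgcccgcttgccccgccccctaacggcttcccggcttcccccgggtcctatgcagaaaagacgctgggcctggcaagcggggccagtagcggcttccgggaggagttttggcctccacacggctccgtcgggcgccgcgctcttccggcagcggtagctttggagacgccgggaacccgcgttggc
ETAA1, chr2:67397083-67397332, plus strand: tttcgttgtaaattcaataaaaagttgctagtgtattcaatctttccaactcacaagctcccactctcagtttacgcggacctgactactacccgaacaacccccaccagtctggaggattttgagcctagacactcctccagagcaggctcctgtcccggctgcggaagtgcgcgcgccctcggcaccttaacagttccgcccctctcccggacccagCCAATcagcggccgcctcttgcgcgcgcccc
RefSeq gives ATM 2 such windows, of which the one further upstream is shown. The other, chr11:108223075-108223324, held CCAAT and no TTTGAA. The ATM window shown held 1 ATTGG and 1 TTTGAA, the ETAA1 window held 1 CCAAT, and the ATR window held neither. Among 35116 RefSeq windows of the same length, searched on both strands, 32.0% held CCAAT and 13.3% held TTTGAA. The E2F letters TTTCGCGC, TTTGGCGC, TTTCCCGC and TTTGGCGG, found in 2.83% of all windows on either strand, and TTCGAA, found in 1.19%, were in none of these 3. These matches describe the letters alone. RefSeq windows were matched for 8 of the 10 genes.

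ATRIP (ENSG00000164053, chr3:48446710-48467645, plus strand), which carries ATR to RPA-coated DNA, measured 6.10 and 4.78 FPKM with DMSO and 6.20 and 6.40 with etoposide. Here DMSO replicate 2 was the low library, and DMSO replicate 1 lay close to the etoposide pair. The log2 difference was 0.22 ± 0.14 (SE, adjusted p = 0.52 by limma), 0.39 without DMSO replicate 1, 0.05 without DMSO replicate 2 and 0.03 over the last 1000 bases. The whole of the 1448 exonic bases of TREX1, a neighboring exonuclease gene on the same strand, lies inside annotated ATRIP exons, so that reads of the 2 genes cannot be told apart there. All 1448 lie in the main transcript of ATRIP, which has 4576 bases. The last 1000 bases of that transcript read 2.07, 1.54, 1.92 and 1.72. Where the 2 genes share bases, the difference of 0.03 there cannot be assigned to ATRIP alone. TREX1 itself was listed at 0.01 to 0.05 FPKM. Coverage of ATRIP on the 5′ side of its main transcript was 7.37, 7.22, 8.12 and 8.04, against 2.38, 1.78, 2.12 and 2.04 on the 3′ side.

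ETAA1 (ENSG00000143971, chr2:67397322-67412089, plus strand), the RPA-bound activator of ATR, was listed at 0 in DMSO replicate 1 and etoposide replicate 1. It stood at 0.0035 FPKM in DMSO replicate 2 and 0.0030 in etoposide replicate 2, which corresponds to 1.14 and 1.00 estimated fragments. It was below the filter of a mean of 0.1 FPKM and was not tested, and no fold is given. Why the gene was listed so low was not tested, so its place in the order of levels rests on this listing alone. For comparison, 30 genes for subunits of RNA polymerase II, the proteasome, the RFC clamp loader and the MCM helicase were all above 0.1 FPKM in each library. The lowest value was 12.6. The nearest genes with expression on either side of ETAA1, MEIS1 and C1D, lie 823453 and 629041 bases away and measured 11.8 to 15.6 and 6.49 to 7.36 FPKM. TOPBP1, the other activator of ATR, was at 28.2 and 35.1 FPKM with DMSO and 44.3 and 44.9 with etoposide, a log2 difference of 0.50 with an adjusted p of 0.30 by limma.

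The clamp and its loader had log2 differences between 0.06 and 0.12. RAD17 (ENSG00000152942, chr5:69369293-69414801, plus strand), the loader subunit that is itself phosphorylated by ATR, measured 5.91 and 5.85 FPKM with DMSO and 6.09 and 6.77 with etoposide. HUS1 (ENSG00000136273, chr7:47963288-47979615, minus strand), a subunit of the ring, measured 9.17 and 9.20 with DMSO and 9.64 and 10.3 with etoposide. For both genes the groups did not overlap, but the gap between them was smaller than the spread of the etoposide libraries. The log2 differences were 0.12 for each, with 95% intervals from −0.13 to 0.38 for RAD17 and from −0.10 to 0.34 for HUS1 and adjusted p-values of 0.62 and 0.60 by limma. Without DMSO replicate 1 they were 0.13 and 0.11. RAD9A (ENSG00000172613, chr11:67317871-67398410, plus strand), whose tail binds TOPBP1, measured 8.17 and 6.71 with DMSO and 7.90 and 7.56 with etoposide, so that both etoposide libraries lay within the DMSO range (log2 difference 0.06, adjusted p = 0.85 by limma, and 0.20 without DMSO replicate 1). Over the last 1000 bases the differences were −0.16 for RAD17, −0.09 for HUS1 and 0.13 for RAD9A. There RAD17 read 8.44 and 6.89 with DMSO and 6.86 and 6.79 with etoposide, so DMSO replicate 2 lay just above the etoposide pair. HUS1 read 4.87 and 5.12 with DMSO and 4.94 and 4.47 with etoposide, below its summed FPKM in each library. That window thus holds only a part of the HUS1 signal. RAD17 shares 380 exonic bases with TAF9 and 210 with AK6 on the other strand, and RAD9A shares 230 with PPP1CA, at 102 to 119 FPKM, on the other strand, and the way reads were counted was not set to use strand in the command that the files record.

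Among the effector kinases, CHEK1 (ENSG00000149554, chr11:125625163-125676255, plus strand), the main ATR substrate kinase, measured 9.01 and 10.6 FPKM with DMSO and 12.7 and 11.6 with etoposide. Both etoposide libraries lay above both DMSO libraries. The difference was 0.31 ± 0.11 (SE) on the log2 scale, or 1.24-fold with a 95% interval from 1.02 to 1.51, at an adjusted p of 0.40 by limma. It stayed positive without DMSO replicate 1 (0.20), without DMSO replicate 2 (0.43) and with the length and GC correction (0.22). Over the last 1000 bases CHEK1 read 8.88, 10.3, 12.6 and 12.3, a difference of 0.38 with a 95% interval from 0.14 to 0.61 (unadjusted p = 0.0069 and adjusted p = 0.22 by limma).

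CHEK2 (ENSG00000183765, chr22:28687743-28742422, minus strand), the main ATM substrate kinase, had the highest mean of the 10 genes. It measured 16.1 and 14.7 FPKM with DMSO and 17.0 and 18.4 with etoposide, and the groups did not overlap. The log2 difference was 0.20 ± 0.09 (SE, adjusted p = 0.44 by limma). It was 0.27 without DMSO replicate 1 and 0.26 over the last 1000 bases, where the 4 libraries read 15.2, 13.7, 17.3 and 17.3. CHEK1 and CHEK2 were the 2 members with an unadjusted p under 0.05 over the last 1000 bases (0.0069 and 0.018 by limma), where 6.61% of all genes had one in the higher direction. Neither passed after adjustment (0.0828% of all genes did).

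WEE1 (ENSG00000166483, chr11:9573670-9593457, plus strand), the kinase that holds CDK1 inactive, was the only one of the 9 tested genes with a lower mean after etoposide. It measured 15.2 and 17.7 FPKM with DMSO and 14.8 and 15.3 with etoposide, and the higher etoposide library lay above the lower DMSO library. The log2 difference was −0.12 ± 0.10 (SE, adjusted p = 0.62 by limma) and was negative in each of the 17 settings tried, from −0.23 without DMSO replicate 1 to −0.01 without DMSO replicate 2. Over the last 1000 bases WEE1 read 14.1 and 14.1 with DMSO and 12.7 and 12.2 with etoposide, so that these groups did not overlap (difference −0.18, adjusted p = 0.40 by limma).

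**Figure D2:**
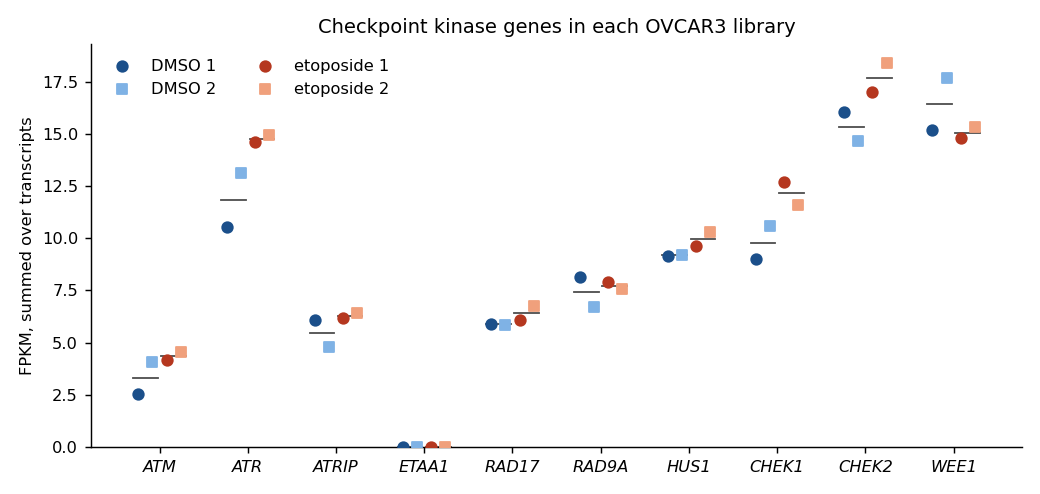
FPKM (vertical axis) of the 10 genes (horizontal axis) in each library, with circles for replicate 1, squares for replicate 2 and short lines for the mean of each group of 2. The etoposide points of ATM, ATR, ATRIP, RAD17, HUS1, CHEK1 and CHEK2 sit above both DMSO points, and ETAA1 sits at or near 0 in all 4 libraries.

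Taking the 9 tested genes as a set, 8 had a higher mean and 1 a lower mean after etoposide, with a median log2 difference of 0.20 beside 0.04 over all 22185 genes tested, of which 56.2% had a higher mean. Both etoposide libraries lay above both DMSO libraries for 7 of the 9, against 28.9% of all genes, and none lay wholly below, against 19% of all genes. No member passed an adjusted p of 0.05 by limma, and neither did any gene (0% of 22185), although 2643 genes (11.9%) had an unadjusted p under 0.05 and 1 gene passed with estimated fragments and voom. ATR and CHEK1 were the 2 members with an unadjusted p under 0.05 in the higher direction (0.038 and 0.035), against 7.06% of all genes, and none had one in the lower direction, against 4.85%. The highest upper bound of any member's 95% interval was 1.95-fold, for ATM. An exact permutation test with 2 libraries against 2 cannot give a two-sided p below 0.333.

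The counts over the set were different when the reads were taken from the 3′ end. The main transcripts of CHEK2 and CHEK1 have 1580 and 1845 bases, and those of ATR and ATM 8158 and 12915. For short transcripts the last 1000 bases are a larger part of the whole. Whether length sets how far the 2 measures differ was not tested. Over the last 1000 bases 5 of the 9 genes had a higher mean (50.4% of all genes did) and 4 a lower mean, and the median difference of the 9 was 0.03. That median was the value of ATRIP, which shares bases with TREX1 as given above. There, 3 had both etoposide libraries above both DMSO libraries (ATM, CHEK1 and CHEK2), against 24.7% of the 21739 genes measured in this way. For 2 both lay below (RAD17 and WEE1), against 21.8%. The RAD17 groups were barely apart, with DMSO replicate 2 at 6.89 and etoposide replicate 1 at 6.86. With the length and GC correction 7 of 9 were higher, with a median of 0.13. Without DMSO replicate 1, 8 of 9 were higher, with a median of 0.17 and no member past an adjusted p of 0.05. Without DMSO replicate 2, ATM and ATR passed, as did 1344 genes in the higher direction (6.06% of all genes).

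**Figure D3:**
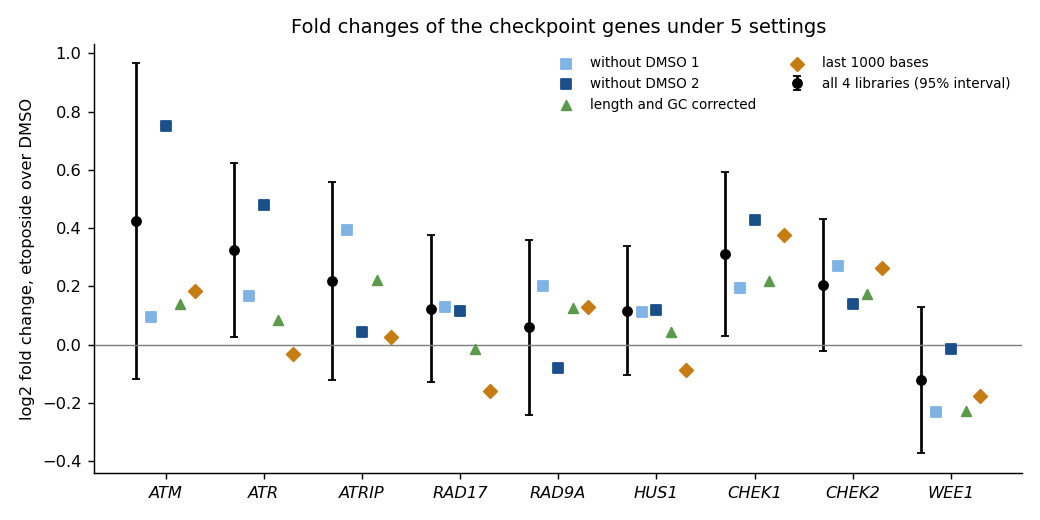
Log2 fold change of etoposide over DMSO (vertical axis) for the 9 tested genes (horizontal axis) in 5 settings, with the 95% interval by limma drawn for the fit on all 4 libraries. The values of ATM run from 0.10 without DMSO replicate 1 to 0.75 without DMSO replicate 2, while CHEK1 and CHEK2 stay above 0 and WEE1 stays below 0 in all 5.

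Ordered by the mean over 4 libraries, the levels were CHEK2 at 16.5, WEE1 at 15.8, ATR at 13.3, CHEK1 at 10.98, HUS1 at 9.58, RAD9A at 7.58, RAD17 at 6.15, ATRIP at 5.87, ATM at 3.82 and ETAA1 at 0.0016 FPKM. FPKM is a level per length, so these can be set beside each other. Neighbors in this order had overlapping ranges over the libraries except HUS1 and RAD9A, ATRIP and ATM, and ATM and ETAA1. The span from ATM to CHEK2 was 4.33-fold.

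Of 9 ratios between genes that act together, 8 could be computed within each library, since ETAA1 was at or near 0. The ratio of CHEK1 to its mediator CLSPN was 1.76 and 1.64 with DMSO and 1.33 and 1.37 with etoposide, a log2 difference of −0.33, which was −0.28 without DMSO replicate 1. CLSPN had the larger difference of the pair, at 5.12 and 6.47 FPKM with DMSO and 9.54 and 8.48 with etoposide. The ratio of WEE1 to PKMYT1, the membrane-bound kinase of the same family, was 1.94 and 2.74 with DMSO and 1.53 and 1.73 with etoposide, a log2 difference of −0.50. From protein-coding transcripts alone that difference was −0.08, and it was −0.75 without DMSO replicate 1 and −0.25 without DMSO replicate 2. The ratio of RAD1 to RAD9A, the partners in the ring, was 2.33 and 3.00 with DMSO and 3.15 and 3.19 with etoposide, a log2 difference of 0.26, which was 0.08 without DMSO replicate 1. These were the 3 ratios whose groups did not overlap, each with an exact two-sided permutation p of 0.333, the smallest possible, and 0.889 after Benjamini-Hochberg adjustment over the 8. With the last 1000 bases alone, the groups overlapped for RAD1 to RAD9A (log2 difference 0.16) and CHEK1 to CLSPN (−0.16), and stayed apart for WEE1 to PKMYT1 (−0.46). In that window 4 ratios had groups apart, the others being ATM to ATR (0.22), HUS1 to RAD9A (−0.22) and WEE1 to CDC25C (0.14). There ATM to ATR was 0.187 and 0.194 with DMSO and 0.250 and 0.197 with etoposide. From the summed FPKM, the ratios of ATM to ATR (0.24, 0.31, 0.28 and 0.30), of ATR to ATRIP (1.73, 2.75, 2.36 and 2.33) and of CHEK1 to CHEK2 (0.56, 0.72, 0.75 and 0.63) overlapped between the groups. The lowest value of each was in DMSO replicate 1. The ratio of WEE1 to CDC25C overlapped too, at 2.20 and 2.64 with DMSO and 2.62 and 2.76 with etoposide.

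At the transcript level, 66 of the 177 annotated transcripts of the 10 genes had a mean of at least 0.1 FPKM, and 35 of these are typed as protein-coding in GENCODE 44. Higher means after etoposide were found for 40 and lower means for 26. Both etoposide libraries lay above both DMSO libraries for 19, against 21.4% of the 71340 transcripts tested, and below for 8, against 16.1%. None passed an adjusted p of 0.05 by limma (0% of all transcripts, with 4121, or 5.78%, at an unadjusted p under 0.05), and the lowest adjusted p of the members was 0.76. The 5 with an unadjusted p under 0.05 were all higher, against 2.95% of all transcripts.

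The smallest p belonged to the CHEK1 transcript ENST00000438015, protein-coding and 4128 bases long, at 1.80 and 1.96 FPKM with DMSO and 3.21 and 4.58 with etoposide (log2 difference 0.99, unadjusted p = 0.023 by limma). It shares 53 exonic bases with STT3A on the same strand. The CHEK1 transcript with the highest mean, ENST00000428830, was at 4.28 and 5.02 with DMSO and 3.13 and 3.67 with etoposide (log2 difference −0.44, adjusted p = 0.85 by limma), so that its part of the gene's FPKM was 47.5% and 47.4% with DMSO and 24.6% and 31.6% with etoposide. The CHEK2 transcript ENST00000416671, typed as a target of nonsense-mediated decay, was at 2.47 and 1.51 with DMSO and 5.61 and 3.91 with etoposide, and 293 of its 2560 bases lie opposite exons of HSCB. The HUS1 transcript ENST00000458191, of the same type, was at 1.78 and 1.44 with DMSO and 2.55 and 3.15 with etoposide. The remaining pair were a retained-intron transcript of ATR, ENST00000657914, at 0.11, 0.23, 0.45 and 0.44, and a CHEK1 transcript typed for nonsense-mediated decay, ENST00000525396, at 0.06, 0.04, 0.17 and 0.22.

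The division of a gene among its transcripts varied between libraries of the same group. For CHEK2, transcripts typed as protein-coding held 20.3% and 47.4% of the FPKM with DMSO and 21.6% and 19.3% with etoposide, and the transcript with the highest mean, ENST00000433728, is typed for nonsense-mediated decay. For ATR, ENST00000350721 held 22.4% and 26.4% with DMSO and 41.8% and 14.8% with etoposide. For RAD17 the protein-coding part was 98.5% to 100% in every library. The ATRIP transcript ENST00000346691 was listed at 0 in DMSO replicate 2 and at 1.55, 0.97 and 1.94 in DMSO replicate 1 and etoposide replicates 1 and 2. In all, 12 of the 66 transcripts were at 0 in at least 1 library.

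The genes around the kinases were taken as 4 lists of 40 genes in all, and all 40 were tested. The lists were chosen by function, with earlier results of these data known. Higher means were found for 31 (56.2% of all genes) and lower means for 9, and none passed an adjusted p of 0.05 by limma, the lowest being 0.27. Both etoposide libraries lay above both DMSO libraries for 26, against 28.9% of all genes, and below for 7, against 19%.

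On the ATM side, 8 of 9 sensors and mediators were higher (56.2% of all genes), 6 with groups apart (28.9% of all genes), at a median log2 difference of 0.24. RNF168, the ubiquitin ligase that marks chromatin around breaks, measured 7.03 and 8.51 FPKM with DMSO and 10.8 and 10.7 with etoposide (difference 0.46, adjusted p = 0.32 by limma). H2AX, the histone that ATM phosphorylates at breaks, was the 1 lower gene, at 66.1 and 58.8 with DMSO and 48.4 and 50.6 with etoposide (difference −0.33, adjusted p = 0.33 by limma). Without DMSO replicate 1 the median of this list was 0.09.

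On the ATR side, 12 of 13 genes were higher (56.2% of all genes), 10 with groups apart (28.9% of all genes), at a median of 0.30, and the median was 0.26 without DMSO replicate 1 and 0.29 over the last 1000 bases. TIMELESS, of the fork protection complex, measured 16.7 and 18.3 FPKM with DMSO and 24.2 and 23.5 with etoposide (difference 0.44, adjusted p = 0.27 by limma). CLSPN, the mediator that presents CHEK1 to ATR, had a difference of 0.64 (adjusted p = 0.30 by limma). The clamp loader subunits RFC3, RFC4 and RFC5 had differences of 0.42, 0.30 and 0.27, each with groups apart. The subunit RFC2 had 0.12, with overlapping groups. RAD17, which takes the place of the large subunit in the checkpoint form of the loader, had 0.12 as well.

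Of the 8 genes for kinase stability and related kinases, 5 were higher (56.2% of all genes), with a median of 0.10. The groups were apart for 4 in the higher direction (28.9% of all genes) and for 2 in the lower (19%). Over the last 1000 bases 4 of the 8 were higher (50.4% of all genes), with a median of −0.003. PRKDC, the catalytic subunit of DNA-PK and a relative of ATM, measured 23.5 and 39.6 FPKM with DMSO and 44.6 and 44.8 with etoposide, and its difference of 0.55 was 0.17 without DMSO replicate 1 and 0.18 over the last 1000 bases. TTI1, of the complex that stabilizes these kinases, measured 16.5 and 17.7 with DMSO and 20.1 and 20.2 with etoposide (difference 0.23, and −0.02 over the last 1000 bases). SMG1, another long relative of ATM, was at 3.55 in DMSO replicate 1 and between 6.68 and 7.10 in the other libraries, and its difference of 0.53 was 0.08 without DMSO replicate 1 and 0.31 over the last 1000 bases.

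The 10 checkpoint targets and antagonists split, with 6 higher (56.2% of all genes) and 4 lower. The groups were apart for all 10, against 28.9% of all genes apart in the higher direction and 19% in the lower. CDC25A, the phosphatase that CHEK1 marks for destruction, measured 7.14 and 7.77 FPKM with DMSO and 11.8 and 10.8 with etoposide (difference 0.59, adjusted p = 0.27 by limma). Cyclin B1, CCNB1, measured 103 and 97.3 with DMSO and 75.3 and 75.4 with etoposide (difference −0.41, adjusted p = 0.27 by limma). CDC25B, CDC25C and PLK1, which act at entry into mitosis, had differences of −0.26, −0.28 and −0.61, and CDK2 and CDK1 had 0.39 and 0.28. Beside these, 41 of 43 S phase markers had higher means, with a median of 0.29. Lower means were found for 41 of 54 markers of G2 and M phase, with a median of −0.13. Of all genes, 56.2% had a higher mean. The higher markers of G2 and M phase numbered 13, 6 without DMSO replicate 1 (median −0.22), 23 without DMSO replicate 2 (−0.08) and 4 over the last 1000 bases (−0.26). None of the 10 checkpoint kinase genes is on either marker list, and 3 of the 40 pathway genes are on the S phase list and 2 on the G2 and M phase list. The part of cell cycle stage in the levels of the checkpoint genes was not tested. In bulk RNA, a change in the number of cells at a stage and a change in RNA per cell cannot be told apart.

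**Figure D4:**
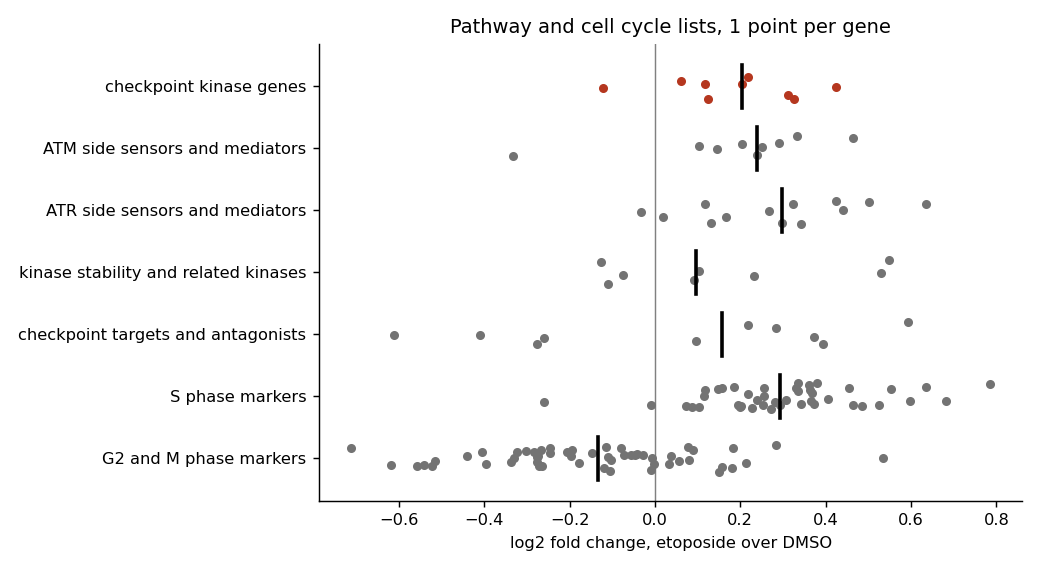
Log2 fold change of etoposide over DMSO (horizontal axis) for each tested gene (points) of the checkpoint kinase genes, the 4 pathway lists and the 2 cell cycle marker lists (vertical axis), with a black bar at each median. The medians run from −0.13 for the G2 and M phase markers to 0.30 for the ATR side, and that of the checkpoint kinase genes is 0.20.

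The profile over the 4 libraries, centered for each gene on the log2 scale, was compared among the 49 tested members and pathway genes by Euclidean distance, as a description over 4 libraries that share their depth and coverage. The nearest to ATM was PRKDC (0.17), another long kinase gene low in DMSO replicate 1. CHEK1 lay nearest MRE11 (0.07), CHEK2 nearest RPA2 (0.06), and RAD17 and HUS1 nearest each other (0.04). RAD9A lay nearest the loader subunit RFC2 (0.08). WEE1 lay nearest RHNO1 at 0.15. ATM and RAD9A were the farthest apart of the 9 genes, at 0.77.

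Genes next to the kinases on the chromosome were read for the same libraries. NPAT, 406 bases from ATM, was at 2.17 and 2.88 FPKM with DMSO and 3.70 and 3.70 with etoposide, and XRN1, 945 bases from ATR, was at 3.30 and 5.36 with DMSO and 5.56 and 6.13 with etoposide. Both neighbors were lowest in DMSO replicate 1, as ATM and ATR were. The annotated pseudogenes of CHEK2 were listed at 0 in every library and those of RAD17 at no more than 0.03.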

How the data were processed

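RNA of OVCAR3 cells was sequenced from 4 mRNA libraries. Per the file headers and the submitters' processing notes, the authors aligned read pairs to GRCh38 with HISAT2 and quantified the Ensembl 104 annotation with StringTie 2.1.7, with no strand option. The deposited values, FPKM with TPM and coverage for each transcript and coverage for each exon, hold no counts, so a count test was not run. FPKM was summed over the transcripts of each gene ID, and genes with a mean of at least 0.1 were tested with limma 3.58.1 (trend, two-sided) in R 4.3.3 on log2(FPKM + 0.1), with Benjamini-Hochberg adjustment over all genes, so fold changes of low genes are understated. All 4 libraries entered the fit with no covariate. Read pairs were implied from the ratio of coverage to FPKM at 200 bases a pair, and all intervals rest on 2 libraries a group. The coverage of each base was summed over the transcripts of a gene and scaled to FPKM units. Groups were taken from the labels, as the study's methods also give them. Members and lists were chosen with earlier results of these data known. Named genes are the 10 members, of each list any that passed and otherwise the 2 with the smallest p, members' transcripts, genes overlapping members and nearest profiles, apart from items that are not reported here. TOPBP1, RFC3, RFC4, RFC5, SMG1, CDC25B, CDC25C, PLK1, CDK1, CDK2, NPAT and XRN1 were added after their values were seen. The fit was tested on simulated data. Alternatives covered the pseudocount, the filter, TPM, centering, TMM with voom, trend, gene type, length and GC correction, a replicate block and each library left out. The level over the last 1000 bases was added after seeing the data.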

Additional observations from a re-analysis of the deposited data

How the results depend on the processing

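No gene passed an adjusted p of 0.05 by limma in the fit on all 4 libraries, whereas 1 did with estimated fragments, TMM and voom, 6 did with the length and GC correction and 18 did over the last 1000 bases. Leaving out 1 library gave 5 to 1934 genes (1934 when DMSO replicate 2 was the one left out, 98 and 102 when etoposide replicate 1 or 2 was), on the assumption that the lone remaining library of its group varies as those of the other group do. Among the members the count was 0 in every setting except the one without DMSO replicate 2, so that the range over left-out libraries was 0 to 2, the 2 being ATM (log2 difference 0.75) and ATR (0.48). For the members' transcripts the count was 0 in every setting. The log2 difference turned negative over the last 1000 bases for ATR (−0.032), RAD17 (−0.16) and HUS1 (−0.086), with the length and GC correction for RAD17 (−0.015), with voom for HUS1 (−0.015), and with each library centered on its median for RAD9A (−0.0087), which ran from −0.079 to 0.20 with 1 library left out. With TPM the median over all genes was 0.10 and the members' median 0.27. The pairs of genes whose ratio did not overlap between groups numbered 3, 5 with protein-coding transcripts alone, 4 over the last 1000 bases, and 4 to 8 with 1 library left out. With 1 library left out, the log2 difference of the ratio ran from −0.072 to 0.29 for ATM to ATR, −0.23 to 0.44 for ATR to ATRIP, −0.073 to 0.29 for CHEK1 to CHEK2 and −0.088 to 0.20 for HUS1 to RAD9A, each lowest without DMSO replicate 1. For HUS1 to RAD9A it was −0.22 both with protein-coding transcripts alone and over the last 1000 bases, where ATR to ATRIP was −0.060. The cause of these changes was not tested. With 2 libraries a group and no counts, differences of the size found here could not be separated from the spread between libraries.

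The libraries share replicate numbers across the groups. Deviations of the replicate 1 libraries from their group means had r = 0.013 across 22185 genes. With 2 libraries a group, those of the replicate 2 libraries are their mirror image. This r cannot settle whether the libraries were paired, since the DMSO deviations carry the relation to length and GC content given above. The labels give no shared day or batch, so the numbers were not taken as pairs. With the replicate number as a block, 0 genes and 0 transcripts passed, the lowest adjusted p among the members was 0.35 by limma, and the 8 higher and 1 lower members kept their direction.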
